A study of Mus musculus with 23 samples.

Results

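The Serpin protease inhibitors were examined as a gene family in the liver and the primary tumor of mice with orthotopic colorectal cancer. Members are the protein-coding genes whose symbol joins Serpin, a clade letter from a to i, and a number, and 62 of the 48895 gene symbols of the deposited table (21884 of them protein-coding) met this rule. The rule uses no measured value, but the family was chosen with earlier results of these data known. The 23 libraries came from male BALB/c mice aged 4 to 6 weeks at the start. In 9 mice, CT26 cells, a colon carcinoma line of the same strain, were injected under the serosa of the cecum, and 3 weeks later the primary tumor was collected together with the liver, here called the pre-metastatic liver. In 5 sham-operated mice, serum-free medium was injected in place of cells, and the liver was collected (control liver). All mice were operated on, so surgery is shared by the groups, and the tumors rest on a single cell line. Every library is poly(A) RNA of a whole piece of tissue, so the tumor libraries mix CT26 cells with host cells.

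Serpins are proteins that share a fold with an exposed reactive loop. In most of them, a target serine protease cleaves this loop and is trapped in a covalent complex, and the sequence of the loop decides which proteases are caught. Hepatocytes secrete most of the plasma serpins, such as the antitrypsins of the *Serpina1* group, the antichymotrypsins of the *Serpina3* group, antithrombin, and C1 inhibitor, while clade B serpins mainly stay inside cells, and some members carry hormones or fold collagen and inhibit no protease. Of the 62 members, 24 belong to clade A, 27 to clade B, and 11 to clades C to I. The table places 23 of the clade A genes in a single cluster at chr12:103616675-104414334 (mm10), 12 of the clade B genes at chr1:106861180-107611795, and 15 of the clade B genes at chr13:32842092-34002794.

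Total counts ranged from 44587556 to 79773163 per library. Even the most alike libraries of a group, the tumors of M7 and M8, gave a chi-square over its degrees of freedom of 49.3, so none was counted as a duplicate. The livers were split into 2 sets at 0.5 of an index of 6 genes of the circadian clock. This put 4 control and 5 pre-metastatic livers in an early phase and control liver C7 and pre-metastatic livers M1, M2, M10, and M12 in a late phase. M7 (-0.102, early) and C7 (0.981, late) lay nearest to the limit, and the late pre-metastatic livers were at 2.05 to 2.92. The comparison of livers was therefore repeated among the early livers. The tumors of mice M10 and M12 stood apart in hepatocyte RNA: albumin (*Alb*) was at 0.254% and 0.419% of its level in the liver of the same mouse, against 0.00841% to 0.0727% in the other 7 tumors. Beyond this, 8 hepatocyte markers summed to 41954 to 51242 RPKM (the count scaled by gene length and by the library's total) in control liver, 28395 to 62979 RPKM in pre-metastatic liver, and 5.46 to 248 RPKM in the tumor. In libraries of whole tissue, fewer cells of a type and less RNA per cell cannot be told apart.

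The members that carry most of the liver signal are near-copies of each other that differ in the reactive loop. The 66 coding bases from the hinge of the loop onward are shown for the 5 antitrypsin genes, on the minus strand of chromosome 12 (GRCm38, GENCODE M21 transcripts). Capitals mark the bases that differ from *Serpina1b*, the most expressed of the group.
Serpina1b, chr12:103728338-103728403: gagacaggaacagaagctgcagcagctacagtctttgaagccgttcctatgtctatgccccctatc
Serpina1a, chr12:103853771-103853836: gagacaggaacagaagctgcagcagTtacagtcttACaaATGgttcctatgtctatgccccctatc
Serpina1c, chr12:103895108-103895173: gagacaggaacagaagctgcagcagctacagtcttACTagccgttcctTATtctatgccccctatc
Serpina1d, chr12:103763776-103763841: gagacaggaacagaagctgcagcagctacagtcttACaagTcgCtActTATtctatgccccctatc
Serpina1e, chr12:103947114-103947179: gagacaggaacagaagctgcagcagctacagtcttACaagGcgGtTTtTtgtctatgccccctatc

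The other 4 loops differed from that of *Serpina1b* at 6 to 8 of the 66 bases, and their whole coding sequences were 91.9% to 96.6% identical to it. The lowest value is that of *Serpina1a*, whose coding sequence is longer (1311 against 1242 bases), and gaps count as differences. Its identity was 90.9% in the loop and 92.0% outside it, so its loop did not stand apart by this measure. Of the 100-base windows of each of these 5 transcripts, 14.8% (*Serpina1e*) to 58.5% (*Serpina1c*) also occurred in another Serpin gene. Reads from such windows cannot be assigned by sequence, and how the authors' counting treated them is not given in the sources used here, so the split among *Serpina1a* to *Serpina1e* is uncertain. In the *Serpina3* group, the loop varied more. The same stretch is shown for the genes in which it was found, on the plus strand, with capitals where a base differs from *Serpina3k*.
Serpina3k, chr12:104345263-104345328: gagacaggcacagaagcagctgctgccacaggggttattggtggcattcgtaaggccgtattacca
Serpina3m, chr12:104393763-104393828: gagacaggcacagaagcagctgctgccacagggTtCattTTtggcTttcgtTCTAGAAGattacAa
Serpina3n, chr12:104413442-104413507: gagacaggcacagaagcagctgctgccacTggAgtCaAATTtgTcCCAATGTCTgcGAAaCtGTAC
Serpina3i, chr12:104268474-104268539: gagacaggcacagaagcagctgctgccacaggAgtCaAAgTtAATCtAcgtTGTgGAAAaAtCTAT
Serpina3f, chr12:104220239-104220304: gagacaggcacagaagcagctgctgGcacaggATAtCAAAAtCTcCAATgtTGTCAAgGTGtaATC

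Between *Serpina3k* and *Serpina3m*, 14 of the 66 loop bases differed, and 22 to 27 differed for the other 3 genes. Outside the loop, identity to *Serpina3k* was 91.6% for *Serpina3m* and 83.0% for *Serpina3n*. In both sets, the first bases of the stretch, which code for the hinge, were nearly the same and the differences lay after them. Of their 100-base windows, 0.204% (*Serpina3n*) to 6.09% (*Serpina3m*) were shared with another Serpin gene, less than among the antitrypsins. The read length is not given, and of 50-base windows 6.90% (*Serpina3n*) to 19.1% (*Serpina3m*) were shared. For the antitrypsins this was 34.2% (*Serpina1b*) to 73.3% (*Serpina1c*). In *Serpina3f* (10.7%) and *Serpina3g* (16.0%), some were shared with the far more abundant *Serpina3k*. What shared reads add to their counts was not tested. Members of clades C to I shared no 100-base window.

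In control liver, the Serpin genes took 2.32% ± 0.355 (SD, n = 5) of all counts, in pre-metastatic liver 2.93% ± 0.265 (n = 9), and in the tumor 0.156% ± 0.0127 (n = 9). A mean of at least 1 RPKM was reached by 23 members in control livers, by 25 in pre-metastatic livers, and by 19 in tumors, and a mean of at least 100 RPKM by 15, 16, and 2. In 11 members, no library exceeded 3 counts in any group, among them all 4 of the *Serpinb3* group.

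**Figure D1:**
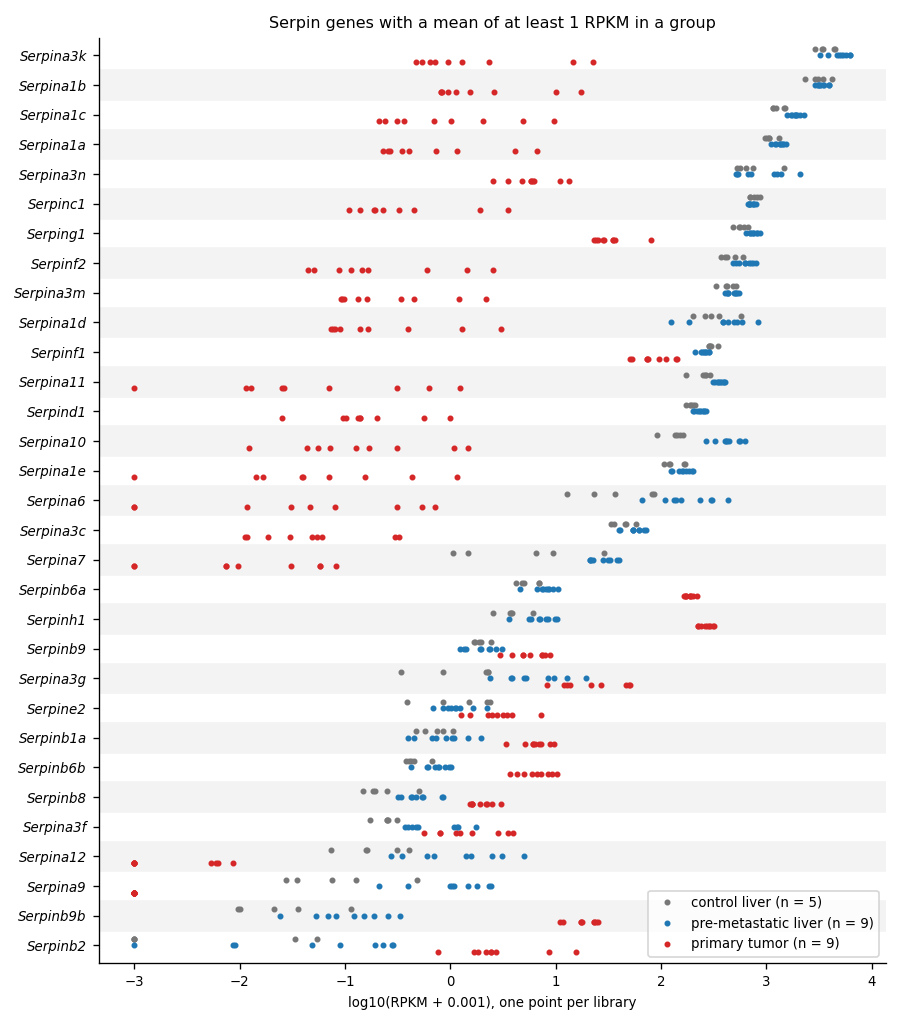
Expression of 31 Serpin genes with a mean of at least 1 RPKM in a group, as log10(RPKM + 0.001), with 1 point for each of 5 control livers, 9 pre-metastatic livers, and 9 tumors. Plasma serpins such as *Serpina3k* and *Serpina1b* lie above 1000 RPKM in every liver and below 25 RPKM in every tumor, and *Serpinh1* and *Serpinb6a* lie above 100 RPKM in every tumor and below 11 RPKM in every liver.

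In control liver, the 10 highest members by mean RPKM were *Serpina3k* (3738), *Serpina1b* (3195), *Serpina1c* (1300), *Serpina1a* (1086), *Serpina3n* (788), *Serpinc1* (770), *Serping1* (576), *Serpinf2* (459), *Serpina3m* (433), and *Serpina1d* (339). *Serpina3k* and *Serpina1b* together made 50.1% ± 1.85 of the summed Serpin RPKM, and clade A made 83.1% ± 1.66 (SD, n = 5). The order among neighbors is loose, since *Serpina3k* (2925 to 4497 RPKM) overlapped *Serpina1b* (2324 to 4202 RPKM), *Serpina1c* (1147 to 1506) overlapped *Serpina1a* (980 to 1306), and *Serpina3n* (528 to 1461) overlapped *Serpinc1* (702 to 868). In pre-metastatic liver, clade A made 84.8% ± 1.32 of the Serpin RPKM and clade B 0.0730% ± 0.0170 (n = 9). The tumor had another makeup, with 6.84% ± 3.18 from clade A, 32.8% ± 4.79 from clade B, and 37.7% ± 3.36 from *Serpinh1* alone.

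The comparison of pre-metastatic with control liver asks what changes in the liver of a tumor-bearing mouse before metastasis. Of 37 Serpin genes tested, 19 rose in pre-metastatic liver and 0 fell (edgeR's quasi-likelihood test with Benjamini-Hochberg adjustment over all genes, adjusted *p* under 0.05), and 18 did not pass. Across all 16987 genes tested, 30.9% passed, 17.6% with a rise and 13.3% with a fall, so the 51.4% of tested members that rose is above the background of rises. The median log2 fold change was 0.594 over the tested members and 0.0118 over all genes, and 34 of the 37 members had a positive value. Among the 34, *Serpinb2*, which did not pass, reached 10 counts in no control liver. *Serpinb9b*, which passed, held 1 to 12 counts there. *Serpina9*, which also passed, held 3 to 48 counts there and 22 to 362 in pre-metastatic liver. *Serpini1*, which did not pass, held 3 to 16 and 6 to 39. These members were tested through their pre-metastatic counts, which favors a rise. The calls covered 11 of 20 clade A members, 4 of 7 clade B members, and 4 of 10 members of clades C to I. The RPKM values of the groups did not overlap for 5 members that were higher (background 4.85%) and 1 that was lower (background 6.09%). The other 25 members had too few counts to be tested (at least 10 counts in at least 5 livers), so the tested members are not the whole family.

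**Figure D2:**
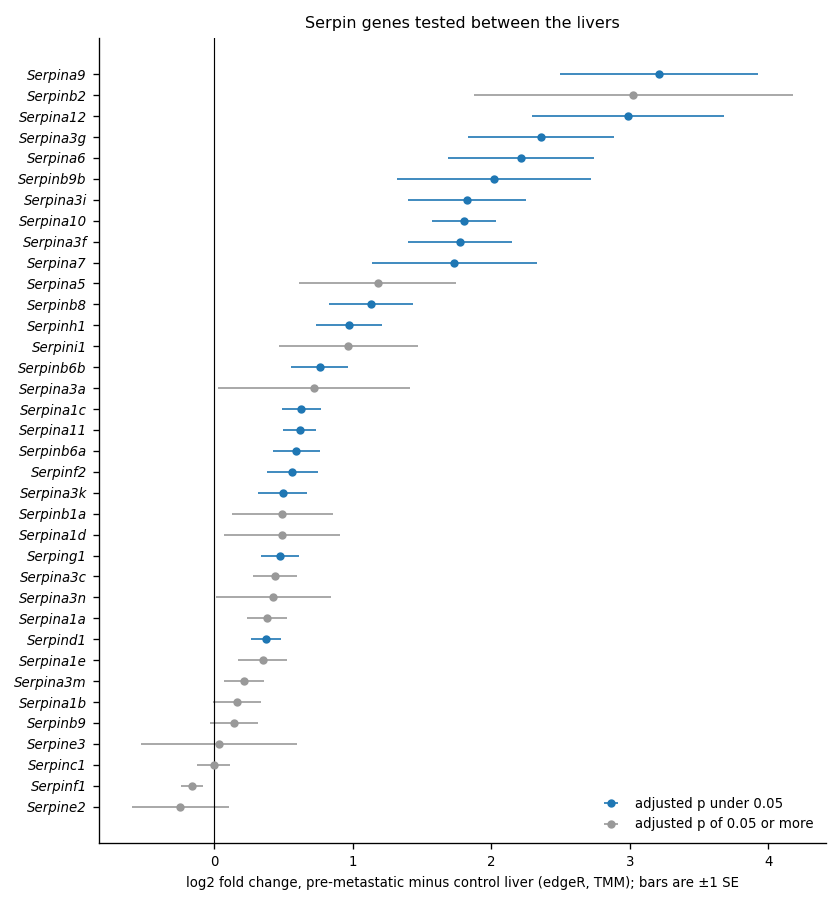
Log2 fold change (edgeR, TMM scaling) of 36 of the 37 tested Serpin genes in pre-metastatic minus control liver, with bars of 1 SE on each side. The 19 genes that passed range from 0.38 (*Serpind1*) to 3.21 (*Serpina9*), and 3 genes that did not pass lie below 0.

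The calls were made on different footing. *Serpina10*, *Serpina11*, *Serpina12*, *Serpina1c*, *Serpina3f*, *Serpina3g*, *Serpina3i*, *Serpina6*, *Serpina9*, and *Serpinb6b* passed under every test, scaling, and left-out library tried, the early livers included. Among the 9 early livers alone, 13 of 35 members tested rose and 0 fell, where 2380 of 16675 genes rose and 1799 fell. *Serpina3k*, *Serpinb6a*, *Serpind1*, *Serpinf2*, and *Serping1* did not pass there, with adjusted *p* of 0.0706 to 0.118, and *Serpinb9b* had too few counts. When the clock phase was a term of the fit over all 14 livers, 21 of 37 members rose. In that fit, 2939 of 16987 genes rose and 2299 fell. In the exact Wilcoxon rank-sum test on RPKM, 14 of 37 members rose and 1 fell, where 1954 of 16987 genes rose and 2699 fell.

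Several carriers and regulators secreted by hepatocytes rose. *Serpina10* (chr12:103616675-103631490), the protein Z-dependent inhibitor of coagulation factor X, was at 161, 137, 92.5, 141, and 153 RPKM in control livers C1, C4, C5, C6, and C7 and at 270 to 627 RPKM (median 428) in pre-metastatic liver. Every pre-metastatic liver exceeded every control liver, and the log2 fold change was 1.80 (SE 0.23, adjusted *p* = 8.72e-05), a 3.49-fold rise. *Serpina6* (chr12:103646630-103657218), the corticosteroid-binding globulin, was at 12.7, 23.4, 86.3, 36.6, and 81.3 RPKM in the same control livers and at 66.5 to 431 RPKM (median 156) in pre-metastatic liver (log2 fold change 2.22, SE 0.52, adjusted *p* = 0.00583). The late-phase pre-metastatic livers held its highest values, 233 to 431 RPKM, and the early ones 66.5 to 156 RPKM, and among the early livers alone the log2 fold change was 1.66 (adjusted *p* = 0.0383). 

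*Serpina7* (chrX:139079249-139085270), the thyroxine-binding globulin, was at 1.07, 9.37, 1.47, 6.51, and 28.5 RPKM in control liver and at 21.2 to 39.7 RPKM (median 28.4) in pre-metastatic liver. Control liver C7, the only late-phase control, lay within the pre-metastatic range and the other 4 lay below it. The log2 fold change was 1.73 (SE 0.59, adjusted *p* = 0.0394), 2.91 among the early livers (adjusted *p* = 0.0116), and 2.72 without C7, and the call was lost when any of 9 other libraries was left out, with adjusted *p* of 0.051 to 0.0902. It was also lost with library totals, without a filter on low counts, and in the Wilcoxon test (adjusted *p* 0.0604 to 0.0983). *Serpina11* (chr12:103980243-103989968), a liver serpin of the same cluster, was at 267, 261, 172, 253, and 289 RPKM in control liver and at 310 to 405 RPKM (median 365) in pre-metastatic liver, without overlap (log2 fold change 0.62, SE 0.12, adjusted *p* = 0.00125).

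*Serpina12* and *Serpina9* were low in every liver but rose. *Serpina12* (chr12:104028769-104044443), which codes for the adipokine vaspin, was at 0.157, 0.162, 0.0722, 0.403, and 0.311 RPKM in control liver (16 to 76 counts) and at 0.274 to 5.03 RPKM (median 1.42) in pre-metastatic liver, with the highest values in M5, M10, and M4. Its log2 fold change was 2.99 (SE 0.69, adjusted *p* = 0.00517), and the groups overlapped. *Serpina9* (chr12:103996613-104013776), known from germinal center B cells, was at 0.126, 0.0268, 0.0339, 0.479, and 0.0741 RPKM in control liver (3 to 48 counts) and at 0.21 to 2.43 RPKM (median 1.08) in pre-metastatic liver (log2 fold change 3.21, SE 0.72, adjusted *p* = 0.00381). Only control liver C6 reached the pre-metastatic range, and without it the log2 fold change was 4.34. Beside *Serpina9*, 3 of 8 B and plasma cell markers rose and 0 fell, with summed levels of 80.5 to 136 RPKM in control and 96.3 to 147 RPKM in pre-metastatic liver, and their part in its rise was not tested.

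In the antitrypsin group, whose copies differ in the reactive loop, the copies moved by unequal amounts. Which protease each copy inhibits was not tested. *Serpina1c* (chr12:103894926-103904950) was at 1506, 1147, 1152, 1466, and 1230 RPKM in control livers C1, C4, C5, C6, and C7 and at 1585 to 2280 RPKM (median 1882) in pre-metastatic liver. The groups did not overlap, with a log2 fold change of 0.63 (SE 0.14, adjusted *p* = 0.00341). *Serpina1b* (chr12:103728156-103738189), the most expressed copy, was at 4202, 2907, 3433, 3109, and 2324 RPKM and at 2914 to 3967 RPKM (median 3249), with a log2 fold change of 0.17 (SE 0.17, adjusted *p* = 0.493). *Serpina1a* (0.38, adjusted *p* = 0.0554), *Serpina1d* (0.49, adjusted *p* = 0.404), and *Serpina1e* (0.35, adjusted *p* = 0.145) had positive log2 fold changes that did not pass. *Serpina1a* passed in 7 of the other tests, scalings, and fits (adjusted *p* 0.0245 to 0.0492).

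Within the summed RPKM of the 5 copies, *Serpina1b* made 52.5% ± 3.29 in control liver and 46.9% ± 1.18 in pre-metastatic liver, and *Serpina1c* made 21.7% ± 2.83 and 26.4% ± 1.97. The ranges met, at 47.7% to 56.4% against 45.4% to 49.1% for *Serpina1b*. *Serpina1d* varied most among mice, from 202 to 571 RPKM in control and from 125 to 842 RPKM in pre-metastatic liver, with its highest values in C1 and M6. As *Serpina1c* shares 58.5% of its 100-base windows with the other copies, these shares depend on how shared reads were counted.

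The *Serpina3* group, descended from an antichymotrypsin gene that multiplied in rodents, split into abundant and rare members. *Serpina3k* (chr12:104338486-104345739), which inhibits tissue kallikrein, was at 4497, 3476, 2925, 4393, and 3397 RPKM in control liver and at 3209 to 6199 RPKM (median 5088) in pre-metastatic liver (log2 fold change 0.50, SE 0.18, adjusted *p* = 0.0422). The groups overlapped widely, and the call was lost in 5 of the other tests, scalings, and subsets (adjusted *p* 0.0623 to 0.118) and when any of 8 libraries was left out (0.054 to 0.108). *Serpina3n* (chr12:104406698-104414334), an acute phase inhibitor of cathepsin G and granzyme B, was at 1461, 748, 528, 643, and 558 RPKM in control liver and at 518 to 2065 RPKM (median 713) in pre-metastatic liver. Control liver C1 stood above 8 of the 9 pre-metastatic livers, and the log2 fold change was 0.43 (SE 0.41, adjusted *p* = 0.463). C1 also had the highest serum amyloid A (*Saa1*) of the control livers, at 1273 RPKM against 34.2 to 422 RPKM, and without C1 the log2 fold change of *Serpina3n* was 0.83 and did not pass. *Serpina3m* (0.22, adjusted *p* = 0.272) and *Serpina3c* (0.44, adjusted *p* = 0.0501) did not pass either.

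Of the rare members, *Serpina3f*, *Serpina3g*, and *Serpina3i*, which are neighbors on chromosome 12 with the pseudogene *Serpina3h* among them, rose. The rare *Serpina3a* (0.72, adjusted *p* = 0.457) did not pass, and *Serpina3b* and *Serpina3j* had too few counts to be tested. *Serpina3g* (chr12:104236242-104241934), an inhibitor of lysosomal cathepsins known from T cells, was at 0.34, 2.2, 2.26, 0.854, and 2.28 RPKM in control livers C1, C4, C5, C6, and C7. In pre-metastatic livers M1, M2, M4, M5, M6, M7, M8, M10, and M12 it was at 8.51, 5.04, 9.72, 19.4, 5.19, 2.39, 3.81, 12.7, and 3.85 RPKM. The groups did not overlap, though M7 lay just above the highest control liver, and the log2 fold change was 2.36 (SE 0.53, adjusted *p* = 0.00402). *Serpina3f* (chr12:104214544-104221129) was at 0.174, 0.253, 0.247, 0.248, and 0.31 RPKM in control liver and at 0.372 to 1.75 RPKM (median 0.49) in pre-metastatic liver, again without overlap (log2 fold change 1.77, SE 0.37, adjusted *p* = 0.00238). *Serpina3i* (chr12:104263045-104269509) was at 0.0606, 0.228, 0.129, 0.231, and 0.074 RPKM in control liver and at 0.138 to 0.83 RPKM (median 0.578) in pre-metastatic liver, where M7 alone overlapped the control range (log2 fold change 1.82, SE 0.43, adjusted *p* = 0.00469).

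Of the 8 T and NK cell markers, 1 rose and 0 fell between the livers, with summed levels of 1.82 to 4.60 RPKM in control and 1.86 to 12.3 RPKM in pre-metastatic liver, and none was at 0 throughout. Their part in the rise of *Serpina3g* was not tested.

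The promoters of these genes are shown because they hold the same short motif. RefSeq (GRCm38.p6) has a promoter, 250 bases before to 50 bases after an annotated start, for 53 of the 62 members. TTCNNNGAA, the letters bound by STAT factors, which carry the signal of IL-6 and interferons, was looked for on both strands. It was in the promoters of 9.55% of 27025 genes and of 8 Serpin genes, which are *Serpina11*, *Serpina1f*, *Serpina3f*, *Serpina3g*, *Serpina3i*, *Serpinb2*, *Serpinb6a*, and *Serpinb9c*. Of the 14 members that rose and have a promoter, 5 held it, against 1 of 15 that were tested and did not pass and 2 of 24 that were not tested. *Serpina3f*, *Serpina3g*, and *Serpina3i* are copies with alike promoters, so their matches are not independent, and a match is no proof of binding. Capitals mark the match in the plus strand of chromosome 12 for these 3 genes and in the minus strand for *Serpina11*.
Serpina3f, chr12:104214294-104214593: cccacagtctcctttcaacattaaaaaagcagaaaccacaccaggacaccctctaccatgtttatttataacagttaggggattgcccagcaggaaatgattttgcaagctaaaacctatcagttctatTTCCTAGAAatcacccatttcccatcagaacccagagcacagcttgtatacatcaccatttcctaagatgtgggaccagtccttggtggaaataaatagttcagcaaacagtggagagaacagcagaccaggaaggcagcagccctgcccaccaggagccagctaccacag
Serpina3g, chr12:104235897-104236196: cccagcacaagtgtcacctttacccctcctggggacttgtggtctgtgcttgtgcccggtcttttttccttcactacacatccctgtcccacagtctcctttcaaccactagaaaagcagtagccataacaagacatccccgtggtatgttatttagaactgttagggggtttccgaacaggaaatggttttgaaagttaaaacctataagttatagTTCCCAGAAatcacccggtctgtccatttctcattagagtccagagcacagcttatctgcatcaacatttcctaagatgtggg
Serpina3i, chr12:104262872-104263171: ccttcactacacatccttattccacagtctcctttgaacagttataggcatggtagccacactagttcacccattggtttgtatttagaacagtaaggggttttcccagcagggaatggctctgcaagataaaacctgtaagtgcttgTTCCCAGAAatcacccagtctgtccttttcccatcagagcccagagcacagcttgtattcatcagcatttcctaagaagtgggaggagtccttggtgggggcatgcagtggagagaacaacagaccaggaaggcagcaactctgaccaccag
Serpina11, chr12:103989908-103990207: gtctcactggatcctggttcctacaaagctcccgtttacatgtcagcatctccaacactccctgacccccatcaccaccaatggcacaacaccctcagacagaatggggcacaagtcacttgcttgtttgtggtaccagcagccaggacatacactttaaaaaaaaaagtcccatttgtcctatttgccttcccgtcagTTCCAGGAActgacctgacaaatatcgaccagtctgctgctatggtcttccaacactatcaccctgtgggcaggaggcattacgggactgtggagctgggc

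The stricter form TTCCNGGAA was in 1.35% of all genes and in the promoters of *Serpina11* and *Serpinb6a* among the members. The E-box CACGTG, which clock factors bind, was in 8.09% of all genes and in none of the 53, and the motif of the liver factor HNF1, in 0.0703% of all genes, was in none of them. The core of the interferon-stimulated response element was in 3.99% of all genes and in *Serpina3a*, *Serpinb6a*, and *Serpinb9*.

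Among the serpins that restrain coagulation, fibrinolysis, and complement, the changes were small and on high levels. *Serpinf2* (chr11:75431736-75439501), α2-antiplasmin, was at 599, 504, 370, 421, and 401 RPKM in control liver and at 482 to 792 RPKM (median 633) in pre-metastatic liver (log2 fold change 0.56, SE 0.18, adjusted *p* = 0.0297). The groups overlapped, and the call was lost without C5, C6, or C7, with adjusted *p* of 0.0671 to 0.0757. *Serping1* (chr2:84765360-84775444), the C1 inhibitor of the complement and contact systems, was at 673, 611, 484, 549, and 562 RPKM and at 638 to 879 RPKM (median 751), a log2 fold change of 0.48 (SE 0.14, adjusted *p* = 0.0147). *Serpind1* (chr16:17331339-17343574), heparin cofactor II, was at 187, 172, 191, 199, and 212 RPKM and at 201 to 269 RPKM (median 237), a log2 fold change of 0.38 (SE 0.11, adjusted *p* = 0.0156). In each of these 2 genes a single control liver, C1 for *Serping1* and C7 for *Serpind1*, reached into the pre-metastatic range.

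*Serpinc1* (chr1:160978606-161003015), antithrombin, was at 822, 755, 868, 703, and 702 RPKM in control liver and at 669 to 805 RPKM (median 697) in pre-metastatic liver. Its log2 fold change was -0.00 with an SE of 0.12 (adjusted *p* = 0.986). *Serpinf1* (chr11:75410029-75422623), the pigment epithelium-derived factor, which inhibits no protease, was at 288, 296, 348, 292, and 288 RPKM and at 210 to 284 RPKM (median 258). This was the member whose pre-metastatic values all lay below the control values, and its log2 fold change was -0.16 (SE 0.08, adjusted *p* = 0.153). It passed on RPKM, with limma at -0.24 and in the Wilcoxon test (adjusted *p* 0.00913 to 0.0468), and not in edgeR under any scaling tried.

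The collagen chaperone *Serpinh1* and 4 clade B members rose from low levels. *Serpinh1* (chr7:99345375-99353239), which holds procollagen in the endoplasmic reticulum, was at 2.51, 3.73, 3.66, 6.10, and 3.86 RPKM in control liver and at 3.60 to 10.2 RPKM (median 7.14) in pre-metastatic liver (log2 fold change 0.98, SE 0.24, adjusted *p* = 0.00665). M2, M10, and M12 lay below the highest control liver, C6. Of 18 genes of collagens and collagen maturation, 10 rose and 2 fell, led by *Col3a1* (log2 fold change 3.01) and *Col1a1* (2.71) and, among the falls, *P4ha1* (-0.75) and *Plod1* (-0.26). Of 8 stellate cell and fibroblast markers, 1 rose, *Col1a1* itself, and 0 fell, with summed levels of 78.5 to 115 RPKM in control and 34.9 to 134 RPKM in pre-metastatic liver.

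*Serpinb6a* (chr13:33917918-34002794), an inhibitor of cathepsin G, was at 4.18, 6.91, 5.01, 6.98, and 4.81 RPKM in control liver and at 4.54 to 10.6 RPKM (median 8.17) in pre-metastatic liver (log2 fold change 0.59, SE 0.17, adjusted *p* = 0.0141). *Serpinb6b* (chr13:32956811-32979067) was at 0.377, 0.451, 0.42, 0.408, and 0.671 RPKM and at 0.422 to 1.01 RPKM (median 0.762), a log2 fold change of 0.76 (SE 0.21, adjusted *p* = 0.0119). *Serpinb8* (chr1:107589926-107611795) was at 0.19, 0.184, 0.148, 0.25, and 0.5 RPKM and at 0.316 to 0.856 RPKM (median 0.469), a log2 fold change of 1.13 (SE 0.30, adjusted *p* = 0.0102). C7 was the one control liver inside the pre-metastatic range of *Serpinb8*, and C4 and C7 lay inside that of *Serpinb6b*. *Serpinb9b* (chr13:33027414-33040559), of the granzyme B inhibitor group, held 1 to 12 counts in control liver (0.00858, 0.00909, 0.0345, 0.0203, and 0.113 RPKM) and 2 to 36 in pre-metastatic liver (0.0232 to 0.331 RPKM, median 0.121). Its log2 fold change of 2.02 (SE 0.70, adjusted *p* = 0.0384) rested on few reads and became 2.97 without C7, and the call was lost when any of 7 other libraries was left out (adjusted *p* 0.0533 to 0.0918).

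Clade B members are known mainly from leukocytes and epithelia, and markers of these cells moved in the same livers. Of 8 Kupffer cell and macrophage markers, 7 rose (*Timd4* by 1.77 and *Cd5l* by 1.64 on the log2 scale) and 0 fell, with summed levels of 64.1 to 135 RPKM in control and 130 to 388 RPKM in pre-metastatic liver. Of 7 neutrophil markers tested, 5 rose (*Ltf* by 2.73 and *Mmp8* by 2.33), with sums of 5.84 to 22.2 and 6.99 to 140 RPKM. Of 7 epithelial markers tested, 3 rose, led by *Vil1* (2.99) and *Krt19* (2.03), with sums of 263 to 300 and 194 to 327 RPKM. No marker of these lists was at 0 in every liver. Their part in the rise of the clade B members was not tested.

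**Figure D3:**
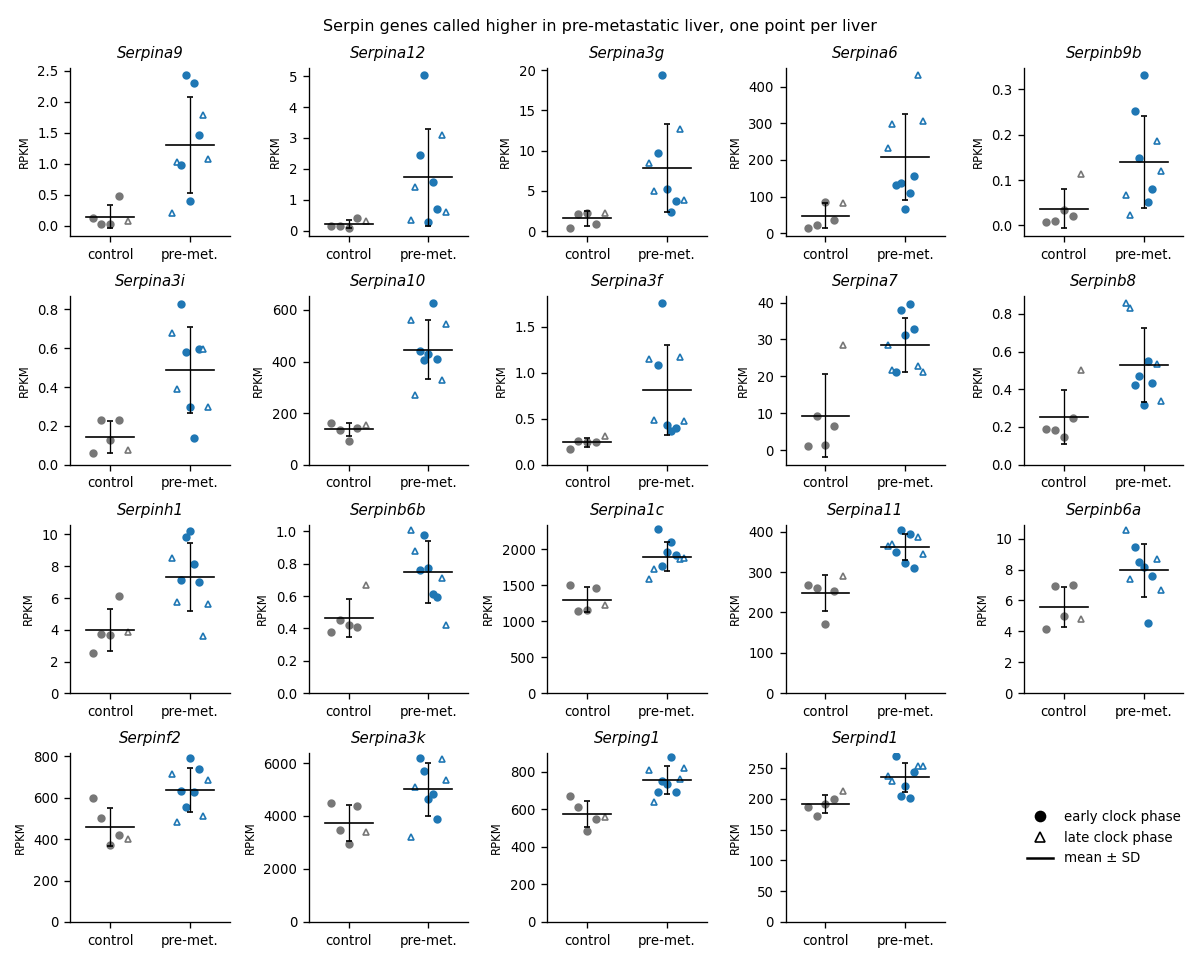
RPKM of the 19 Serpin genes that rose in pre-metastatic liver, with 1 point per liver (5 control, 9 pre-metastatic), filled for the early and open for the late clock phase, and lines at the mean with 1 SD on each side. Groups lie apart for *Serpina10*, *Serpina11*, *Serpina1c*, *Serpina3f*, and *Serpina3g*, and meet or overlap for the other 14.

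The proteases that serpins inhibit, and their partners, were followed as lists in the same livers. Of 17 target proteases of plasma serpins, 8 rose and 0 fell, led by coagulation factor XI (*F11*, from 11.6 to 36.6 RPKM, log2 fold change 1.73, adjusted *p* = 3.17e-05) and urokinase (*Plau*, from 0.407 to 0.836 RPKM, log2 fold change 1.13, adjusted *p* = 0.0145). Of 6 leukocyte serine proteases tested, 3 rose and 0 fell. Proteinase 3 (*Prtn3*), an antitrypsin target of neutrophil granules, went from 1.22 to 72.0 RPKM (log2 fold change 5.99, adjusted *p* = 3.94e-06), and cathepsin G (*Ctsg*), a target of the antichymotrypsins, from 0.115 to 0.788 RPKM (2.89, adjusted *p* = 0.0304). Of 12 serpin cofactors and clearance receptors tested, 6 rose (*Plaur* by 1.20 and *Procr* by 0.94) and 2 fell (*Vldlr* by -2.08 and *Sdc1* by -0.53, on the log2 scale).

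Protease inhibitors of other families moved likewise. Of 19 tested, 9 rose and 1 fell. The rises were led by *A2m*, which was near 0 in control liver (0.00583 RPKM) and at 0.847 RPKM in pre-metastatic liver (log2 fold change 7.31, adjusted *p* = 0.000516), and by *Timp1*, from 0.201 to 2.05 RPKM (3.48, adjusted *p* = 0.000511). The murinoglobulin *Mug1* fell from 1594 to 945 RPKM (-0.68, adjusted *p* = 0.00462). Of 22 acute phase genes, 20 rose and 0 fell, led by *Orm2* and *Saa2* (both 5.28). The median log2 fold change of the 22 genes was 1.39. The rises of the plasma serpins above 20 RPKM in pre-metastatic liver ran from 0.38 to 2.22. They lay below those of the leading acute phase genes and on both sides of that median. Of 14 genes of the growth hormone axis and male-biased liver expression, 4 rose and 0 fell, led by *Hsd3b5* (5.57) and the complement gene *C6* (1.81). Of 8 hepatocyte markers, 0 rose and 3 fell, led by *Tat* (-1.74) and *Cps1* (-1.61).

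The comparison of the primary tumor with the liver of the same mice describes which serpins each tissue holds. The plasma serpins were far lower in the tumor, and a small set of other members, led by *Serpinh1* and *Serpinb6a*, was higher. Of 36 members tested, 8 rose in the tumor and 22 fell, where 84.2% of all 17827 genes passed, 43.7% with a rise and 40.5% with a fall. No clade A member rose and 17 of 19 fell, while 6 of 8 clade B members rose and 0 fell. Among the 17, *Serpina5*, *Serpina9*, and *Serpina12* reached 10 counts in no tumor and were tested only through their liver counts, which fixed their direction, and without them 14 of 16 fell. Some of these 14, such as *Serpina7* (0 to 11 counts in the tumor) and *Serpina3c* (1 to 38), were also tested through their liver counts, which favors a fall. Among the 6 clade B rises, *Serpinb2* held 0 to 41 counts in the paired livers and 95 to 2150 in the tumor. *Serpinb9b* held 2 to 36 and 1265 to 3270. Both were tested through their tumor counts, which favors a rise. The groups did not overlap for 8 members that were higher (background 55.8%) and 21 that were lower (background 14.5%). The median log2 fold change of the members was -8.73, or -6.19 with *Serpina5* and *Serpina9*, which had 0 counts in every tumor, set to 3 counts per library, and that of all genes was 0.0890.

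In this comparison the scaling matters. The liver libraries are dominated by a few abundant transcripts, and the TMM factors had a median of 0.668 in pre-metastatic liver and 1.53 in the tumor. Scaled to library totals, as RPKM is, the median of all genes moved from 0.0890 to 1.27 on the log2 scale. Of 36 members, 14 then rose and 21 fell, where 12218 of all 17827 genes rose and 3731 fell. *Serpina3f* (log2 fold change -0.00 with TMM, adjusted *p* = 0.998, and 1.16 with library totals), *Serpina3g* (0.63, adjusted *p* = 0.153, and 1.78), *Serpinb9*, *Serpinb10*, *Serpine2*, and *Serpini1* rose with library totals and did not pass with TMM, while *Serpina3i* fell with TMM scaling (-1.66, adjusted *p* = 6.73e-05) and did not pass with library totals. The 8 members that rose and the other 21 that fell passed under both scalings.

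The secreted liver serpins fell to similar shares of the liver. Relative to the liver of the same mouse, the tumor held a median of 0.0351% of the *Serpina1b* RPKM, 0.0166% of *Serpina3k*, 0.0287% of *Serpinc1*, and 0.0204% of *Serpinf2*. *Serpina3k* was at 0.476 to 22.7 RPKM (median 0.942) in the tumor against 3209 to 6199 RPKM in the paired livers (log2 fold change -11.14, SE 1.08, adjusted *p* = 1.08e-08). In 12 of 13 liver serpins, the shares of M10 and M12 were above those of the other 7 tumors, at 0.126% to 0.672% against 0 to 0.124% of the liver. The exception was *Serpina1d*, with 0.261% in M10, 0.514% in M12, and 0.319% in M2, whose liver had the lowest *Serpina1d* level. *Alb*, *Apoa1*, *Ttr*, and *Cps1* were set apart in the same tumors, at 0.195% to 0.798% against 0.00841% to 0.102%. Without these 2 tumors, 9 of 36 members rose and 22 fell, where 7695 of 18215 genes rose and 7335 fell.

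**Figure D4:**
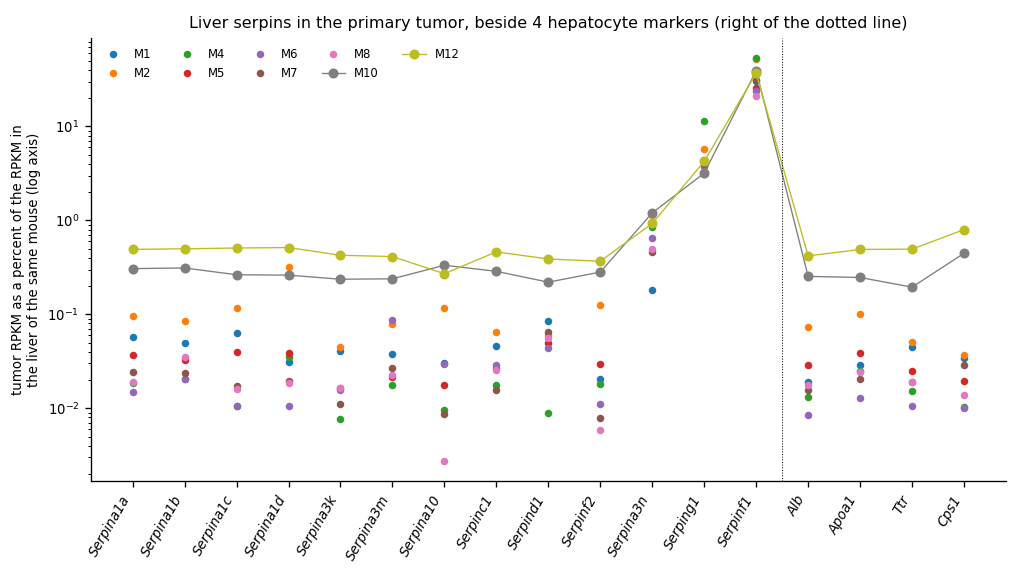
RPKM of liver serpins in the primary tumor as a percent of the RPKM in the liver of the same mouse (log axis), with 1 point per mouse and lines for M10 and M12. Most serpins lie with the hepatocyte markers *Alb*, *Apoa1*, *Ttr*, and *Cps1* below 1%, and *Serping1* and *Serpinf1* lie above 3% in every mouse.

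A few members of the liver set did not share this fall. *Serpinf1* stood at 20.9% to 53.8% of the paired liver (median 31.5%), with 50.2 to 143 RPKM (median 75.3) in the tumor and its highest values in M4 and M2. *Serping1* stood at 3.12% to 11.6% (median 3.83%), with 23 to 80.2 RPKM (median 28.8) in the tumor. *Serpina3n* stood at 0.183% to 1.20% (median 0.857%), with 2.52 to 13.4 RPKM and its highest values in M6 and M12. All 3 fell, with log2 fold changes of -2.68 (SE 0.19), -5.62 (SE 0.24), and -8.46 (SE 0.48) and adjusted *p* of 5.3e-11, 3.82e-14, and 2.46e-12. In these genes M10 and M12 lay within the range of the other tumors or, for *Serpina3n* in M10, just above it.

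The highest members in the tumor by mean RPKM included *Serpinh1* (270), *Serpinb6a* (186), *Serpinf1* (90.6), *Serping1* (35.2), *Serpina3g* (26.9), *Serpinb9b* (19.0), *Serpinb6b* (6.78), *Serpinb1a* (6.64), and *Serpina3n* (6.59). *Serpinh1* was at 274, 293, 227, 316, 222, 262, 241, 309, and 288 RPKM in the tumors of M1, M2, M4, M5, M6, M7, M8, M10, and M12. The paired livers were at 3.60 to 10.2 RPKM, and the log2 fold change was 4.02 (SE 0.18, adjusted *p* = 5.44e-14) with TMM scaling. Of 18 genes of collagens and collagen maturation, 16 rose in the tumor, led by *Fkbp10* (4.59) and *Plod2* (4.51), and 2 fell, *P4hb* (-1.77) and *Bmp1* (-1.71).

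*Serpinb6a* was at 191, 173, 166, 170, 202, 222, 190, 189, and 173 RPKM in the same tumors, a spread of 17.8 RPKM (SD) around 186, against 4.54 to 10.6 RPKM in the paired livers (log2 fold change 3.37, SE 0.12, adjusted *p* = 3.46e-15). *Serpinb6b*, of the same cluster, was at 3.70 to 10.3 RPKM (median 6.72), a log2 fold change of 2.02 (SE 0.21, adjusted *p* = 2.07e-08), and *Serpinb1a*, an inhibitor of neutrophil elastase, at 3.39 to 9.73 RPKM (median 6.33), a log2 fold change of 1.57 (SE 0.28, adjusted *p* = 3.76e-05). *Serpinb9b* had the largest rise, at 11.1 to 25.1 RPKM (median 17.9) against 0.0232 to 0.331 RPKM in the paired livers, with a log2 fold change of 5.87 (SE 0.37, adjusted *p* = 1.39e-11). The related *Serpinb9*, the best known granzyme B inhibitor of mice, was at 2.93 to 8.88 RPKM against 1.22 to 3.10 RPKM, a log2 fold change of 0.39 (SE 0.20, adjusted *p* = 0.0756) that passed with the mouse as a block. *Serpinb9b* therefore lay above *Serpinb9* in every tumor and below it in every liver.

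The plasminogen activators and their receptor rose in the tumor, with urokinase (*Plau*) at 47.1 RPKM (log2 fold change 4.63), *Plat* at 10.7 RPKM (3.52), and the receptor *Plaur* at 87.0 RPKM (5.21) on average in the tumor. *Serpinb2*, an intracellular and secreted inhibitor of urokinase, was at 0.762 to 15.4 RPKM (median 2.43) in the tumor, highest in M2 and M6, and at 0 to 0.285 RPKM in the paired livers (log2 fold change 3.80, SE 0.73, adjusted *p* = 8.53e-05). *Serpinb8* was at 1.53 to 3 RPKM in the tumor (log2 fold change 0.76, SE 0.19, adjusted *p* = 0.00109).

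The targets of the liver serpins were lower in the tumor as well. Of 17 target proteases of plasma serpins, 2 rose, *Plau* and *Plat*, and 15 fell, led by *F11* (-12.12) and *Hgfac* (-11.33). Of 9 leukocyte serine proteases tested, 5 rose, led by the mast cell proteases *Mcpt4* (6.96) and *Cma1* (5.82), and 2 fell, *Prtn3* (-6.57) and neutrophil elastase, *Elane* (-5.54). Of 19 protease inhibitors of other families, 6 rose, led by the metalloprotease inhibitors *Timp1* (6.20) and *Timp2* (3.18), and 12 fell, led by *Itih1* (-11.40) and *Hrg* (-11.21). All these values are log2 fold changes with TMM scaling.

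*Serpina3g* was at 12, 50.9, 46.8, 49.5, 8.28, 27.1, 13.8, 12.7, and 21.5 RPKM in the tumors of M1, M2, M4, M5, M6, M7, M8, M10, and M12. It was the only clade A member with a mean above 10 RPKM in the tumor. It was highest in M2, M4, and M5. Of 8 T and NK cell markers, 7 rose in the tumor and 1 fell, with sums of 12 to 48.6 RPKM against 1.86 to 12.3 RPKM in the paired livers, and their part in the level of *Serpina3g* was not tested. In M10, tumor and liver held the same level, 12.7 RPKM each.

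**Figure D5:**
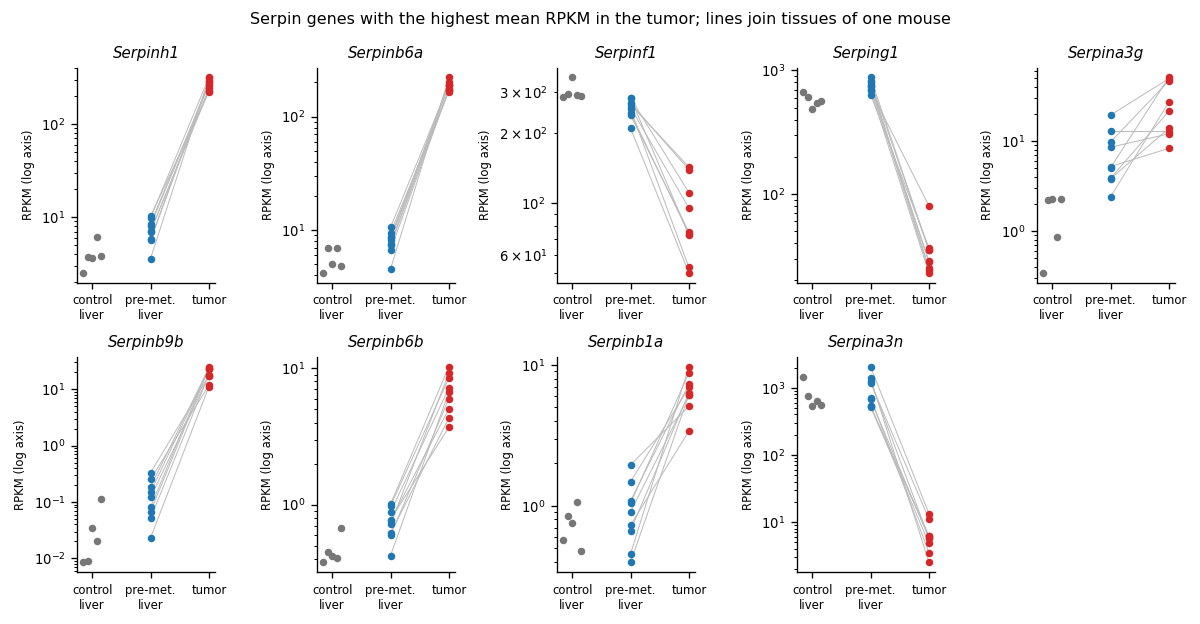
RPKM (log axis) of 9 Serpin genes among the highest by mean in the tumor, in 5 control livers, 9 pre-metastatic livers, and 9 tumors, with lines joining the tissues of a mouse. Every line rises for *Serpinh1*, *Serpinb6a*, *Serpinb9b*, *Serpinb6b*, and *Serpinb1a*, and every line falls for *Serpinf1*, *Serping1*, and *Serpina3n*.

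Against control liver, which shares the tumor libraries with the comparison above, 39 members were tested, and 18 were higher in the tumor and 19 lower, where 82.1% of all 19320 genes passed, 44.1% higher and 38.0% lower. All 13 clade B members tested were higher, but 7 of them, *Serpinb1b*, *Serpinb1c*, *Serpinb2*, *Serpinb7*, *Serpinb9e*, *Serpinb9g*, and *Serpinb10*, reached 10 counts in no control liver and were tested only through their tumor counts, which fixed their direction. Of the other 6, *Serpinb9b* held 1 to 12 counts in control liver and 1265 to 3270 in the tumor, so it too was tested through its tumor counts. The rest reached 10 counts in every control liver and every tumor. *Serpina12*, among the 19 that were lower, likewise reached 10 counts in no tumor. Without the tumors of M10 and M12, 36 members were tested and 15 were higher, where 8197 of 18863 genes were higher. *Serpinb1c*, *Serpinb9e*, and *Serpinb9g* then had too few counts to be tested. *Serpinb9c*, *Serpinb9d*, and *Serpinb9g* had 0 counts in every liver of both groups and up to 20, 16, and 61 counts in a tumor. The log2 fold changes were 5.02 for *Serpinh1*, 3.98 for *Serpinb6a*, and 7.92 for *Serpinb9b*. *Serpina3f* (1.81, adjusted *p* = 0.00211) and *Serpina3g* (3.02, adjusted *p* = 0.000368) were higher than in control liver, in which their levels were below those of pre-metastatic liver. *Serpine2*, which inhibits thrombin and is also known as protease nexin 1, was at 1.25 to 7.29 RPKM in the tumor and at 0.385 to 2.36 RPKM in control liver, a log2 fold change of -0.00 (adjusted *p* = 0.997) with TMM and of 1.09 with library totals.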

How the data were processed

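RNA-seq of 23 poly(A) libraries was analysed. Per the labels' processing notes, HISAT2 or HISAT and HTSeq 0.6.0 with mm10 were used; their settings and the read length are not given in the sources used here. The authors deposited raw counts for each of 48897 rows and RPKM, the count scaled by gene length and by the library's total count. All 46 columns were matched to samples by mouse number and tissue. Symbols on more than 1 line (2) were summed. All 62 members overlap their namesake in RefSeq GRCm38.p6, 41 of them with identical ends.

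Counts were tested with edgeR 4.0.16 in R 4.3.3 (TMM, robust quasi-likelihood, two-sided, Benjamini-Hochberg over all genes tested), separately for each pair of groups, keeping a gene that reached 10 counts in 5 or more libraries (9 or more between tumor and pre-metastatic liver); SE is the log2 fold change over the root of F. RPKM values are means ± SD. Counting error alone sets a floor of 3 counts per library, and p-values weigh the difference between groups against the spread between mice. The main test of tumor against pre-metastatic liver was unpaired, though both tissues come from the same mice. Alternatives were DESeq2 1.42.0, limma 3.58.1 on log2(RPKM + 1) and log2(RPKM + 0.1), upper-quartile scaling, no filter, the exact Wilcoxon test, the clock phases, left-out libraries, and the mouse as a block; scaling to library totals and leaving out the tumors of M10 and M12 were chosen after seeing the data. Tumor and liver are paired by mouse number, as both come from the same animal; over 9563 genes, the mean correlation of their deviations was 0.0980 for tissues of 1 mouse and -0.0125 for tissues of different mice, with 4 of 9 pairs over 0.1. On simulated counts for the livers, 62 of 100 genes changed by 1 and 79 of 100 changed by 2 on the log2 scale were recovered with 7 false calls among 16987 genes.

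Named are all members that passed between the livers and the 10 highest in control liver and in the tumor, except 1 member that is counted but not reported here; for other lists, up to 2 genes per direction. Other genes named for a single value were chosen after their values were seen. The members and lists were chosen with earlier results of these data known. Promoters and transcripts are those of RefSeq (GRCm38.p6) and GENCODE M21. Figures and tables were made with Python 3.11.15, pandas 2.3.3, and matplotlib 3.10.9.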

Additional observations from a re-analysis of the deposited data

Results flagged for a closer look

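Among 67 sets of values, 1 for each member with a mean of at least 1 RPKM in a group, 3 held a library far from the others, where chance gives about 1 in 20. *Serpina11* was lowest in control liver C5, at 172 RPKM against 253 to 289 RPKM in the other 4, and *Serpinf1* was highest in the same liver, at 348 RPKM against 288 to 296 RPKM. *Serping1* was highest in the tumor of M4, at 80.2 RPKM against 23 to 36.7 RPKM in the other 8. Outside the protein-coding members, the transcribed pseudogene *Serpina3h*, which lies between *Serpina3g* and *Serpina3i*, was higher in pre-metastatic liver by 1.78 on the log2 scale (SE 0.33, adjusted *p* = 0.00119), at 1.76 to 7.31 RPKM against 0.565 to 1.99 RPKM in control liver.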

How the results depend on the processing

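In the livers, the 19 rises became 13 to 22 under other tests, scalings, and subsets and 15 to 21 when 1 library was left out, and the 0 falls became 1 with limma at either pseudocount and with the Wilcoxon test and stayed 0 when a library was left out. Between tumor and pre-metastatic liver, the 8 rises became 16 with limma on log2(RPKM + 1), 16 with limma on log2(RPKM + 0.1), 18 without a filter on low counts, and 14 with library totals, and 8 to 10 when a mouse was left out, where 22 fell each time. With the replicate block (mouse), 9 rose and 22 fell, and the block changed only the call of *Serpinb9*. Against control liver, 15 to 22 rose and 18 to 23 fell under other tests, scalings, and subsets, and 18 to 19 rose and 19 to 20 fell when a control liver was left out. Directions turned for *Serpina3f* between tumor and pre-metastatic liver, to 0.56 and 0.97 with limma at the larger and smaller pseudocount and 1.16 with library totals, and for *Serpine2* between tumor and control liver, to 0.72 with limma and 1.09 with library totals. Both are near 0 with TMM, and the scaling is what differs. Over all genes, limma and library totals moved the split of rises and falls between tumor and pre-metastatic liver from 7796 and 7215 to 12804 and 3929, 12846 and 3948, and 12218 and 3731, and between tumor and control liver from 8525 and 7337 to 12380 and 4032 (limma) and 12846 and 4124 (library totals). In the livers, 2996 rises and 2254 falls became 1967 and 2940 or 2123 and 2920 with limma, 1954 and 2699 with the Wilcoxon test, and 2354 and 2789 with library totals. The 25 members not tested in the livers held at most 17 counts in any liver, and 11 of them held 0 in every liver, where low depth and no expression cannot be told apart.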

Other observations

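The remaining Serpin rows are not protein-coding and are reported as values. *Serpina4-ps1*, at 3.72 to 66.2 RPKM in control liver and 2.88 to 138 RPKM in pre-metastatic liver, had a log2 fold change of 0.76 (SE 0.90, adjusted *p* = 0.556). *Serpina3e-ps* was at 0.825 to 2.43 RPKM in control liver and 0.671 to 3.66 RPKM in pre-metastatic liver (log2 fold change 0.18, SE 0.48, adjusted *p* = 0.811). In the tumor both were below 0.1 RPKM in every library.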
